A study of Homo sapiens with 6 samples.

Results

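MicroRNA genes were examined in the human breast cancer cell line MDA-MB-231, which lacks the oestrogen receptor and has mesenchymal features. Cells carried a lentiviral short hairpin against LOXL2 (shLOXL2) or a control hairpin (shControl), and total RNA of both groups was measured on Affymetrix arrays, 3 for shLOXL2 and 3 for shControl. LOXL2, an enzyme of the lysyl oxidase family, cross-links collagen and elastin outside the cell, and it also has a described nuclear role. The microRNA genes were taken from the authors' deposited table of log ratios, as the entries whose identifier or symbol is that of a microRNA gene. They came to 8 of its 724 entries, namely MIRLET7A2, MIR125B1, MIR100, MIR181A2, MIR221, MIR503, MIR224 and MIR29A. The table's own type column called the same number of entries, 8, a microRNA, and each of these genes had a single entry. The members were chosen through these log ratios, so the ratios are a description and carry no test.

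MicroRNAs are made from long primary transcripts. The nuclear enzyme Drosha cuts out a hairpin, the cytoplasmic enzyme Dicer releases a short duplex from it, and a strand of that duplex guides an Argonaute protein to messenger RNAs that pair with its seed, bases 2 to 8 from its start. MicroRNA genes often lie in clusters inside a longer host transcript, and members of a cluster can then share a primary transcript. The arrays were hybridised with whole-transcript target made from column-purified total RNA, a procedure for long transcripts, so an entry for a microRNA gene is not a measurement of the mature microRNA.

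The mature strands that these genes are best known for are printed in lower case with the seed in capitals, because the seed defines the family a microRNA acts with. Sequences are those of RefSeq (GRCh38.p14), where all 8 genes were matched by symbol.
MIR100, hsa-miR-100-5p: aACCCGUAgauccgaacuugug
MIRLET7A2, hsa-let-7a-5p: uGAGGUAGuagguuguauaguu
MIR125B1, hsa-miR-125b-5p: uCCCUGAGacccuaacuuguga
MIR181A2, hsa-miR-181a-5p: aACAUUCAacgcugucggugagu
MIR221, hsa-miR-221-3p: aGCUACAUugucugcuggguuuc
MIR503, hsa-miR-503-5p: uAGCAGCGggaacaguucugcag
MIR29A, hsa-miR-29a-3p: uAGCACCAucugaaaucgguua
MIR224, hsa-miR-224-5p: uCAAGUCAcuagugguuccguuuag

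The 8 strands had 8 different seeds, so no pair of the listed genes belongs to the same seed family. They were 22 to 25 bases long, with 36.4% to 56.5% G and C. Among the 28 pairs, the longest run of bases that any pair shared was 8 bases, in miR-100 and miR-125b, past the seed of both. Each strand other than those of miR-503 and miR-224 shared its seed with other human microRNAs. The let-7a seed occurred in 10 other mature microRNAs, the miR-181a seed in 4, and the seeds of miR-100, miR-125b and miR-29a in 2 each, among them miR-99a, miR-125a and miR-29b. The miR-221 seed occurred in 1 other, miR-222.

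For 3 of the genes the same mature strand is also made elsewhere in the genome. Let-7a-5p was identical for 3 genes, MIRLET7A1, MIRLET7A2 and MIRLET7A3. MiR-125b-5p was identical for 2 genes, MIR125B1 and MIR125B2, and miR-181a-5p for 2, MIR181A1 and MIR181A2. These are also the 3 entries where the name column of the authors' deposited table gives another gene than the identifier column (let-7a-1, miR-125a and miR-181a-1). The identifier column was followed here.

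All 8 microRNA entries were listed lower in shLOXL2 cells in the authors' deposited table, where 43.1% of all entries (312 of 724) were. The direction is that of shLOXL2 over shControl, read from LOXL2, the hairpin's target, which had the lowest entry of the authors' deposited table at -3.04. The header of the table states neither direction nor log base, and the entries have no replicate error. In the authors' deposited table the microRNA entries ran from -0.85 to -0.60, with a median of -0.72. Over all entries of the authors' deposited table the median was 0.56, and over the 312 entries listed lower it was -0.66. If the entries are log2 values, the microRNA genes were listed 1.52-fold to 1.80-fold lower, and 1.82-fold to 2.33-fold lower if they are natural logs.

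The microRNA genes lay in the middle of the entries listed lower. In the authors' deposited table, 64 entries were lower than every microRNA gene, and 93 of the entries listed lower were nearer to 0 than all of them. Of the 8, 5 were below the median of the entries listed lower. None of the 8 reached a size of 1, which 67 entries of the authors' deposited table did, 27 of them listed lower. The entry of the table nearest to 0 had a size of 0.54, so the microRNA gene nearest to that edge, MIR503 at -0.60, stood close to it.

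**Figure D1:**
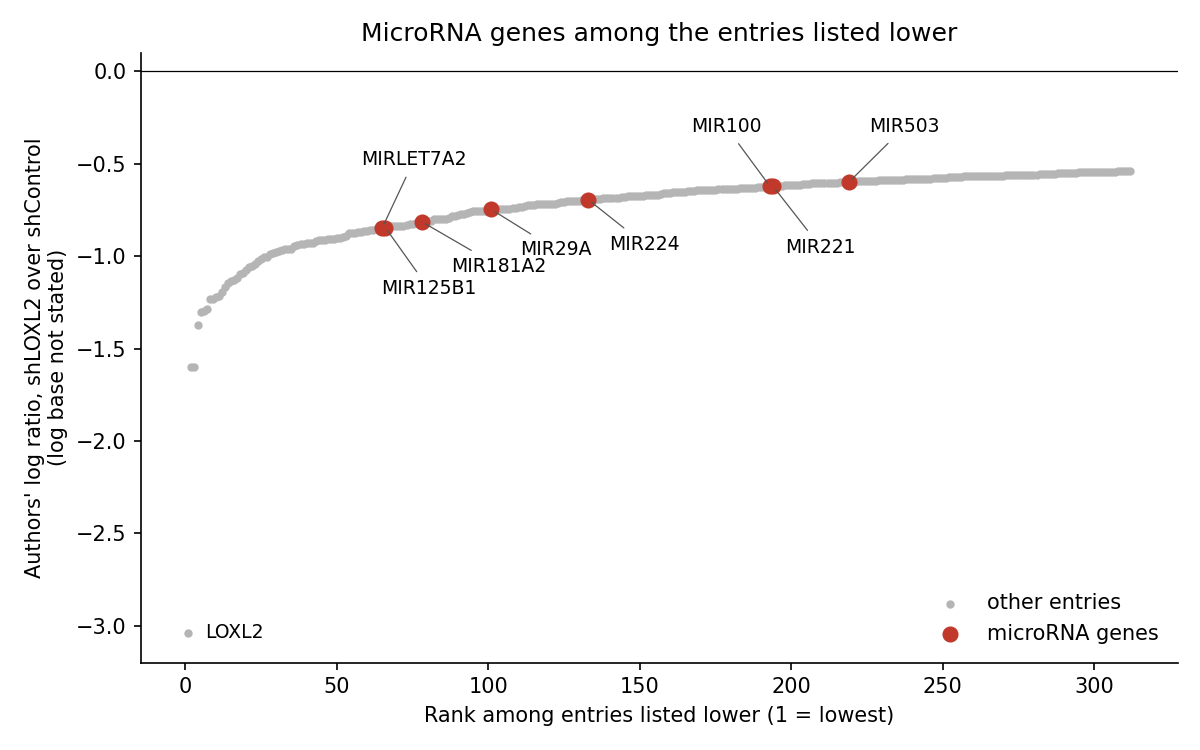
Authors' log ratio of shLOXL2 over shControl (vertical axis, log base not stated) of the 312 entries listed lower, ordered from the lowest (horizontal axis, rank). The 8 microRNA genes (red) lie between -0.85 and -0.60, and LOXL2 stands alone at -3.04.

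Other types of entry in the authors' deposited table were rarely listed in a single direction. Its type column gave 14 types, and the 8 of 8 microRNAs listed lower stood beside 5 of 5 ion channels, 8 of 9 growth factors and 6 of 9 G-protein coupled receptors. At the other end, 2 of 14 cytokines and 12 of 34 kinases were listed lower in the authors' deposited table. Small nucleolar RNA genes have no type of their own there and stand under the type other. All of their entries were listed lower, from SNORA36A at -0.92 to SNORD42B at -0.55 in the authors' deposited table. A single direction is thus not particular to the microRNA genes. Without the microRNA genes, 42.5% of the other 716 entries were listed lower. The microRNA genes were proposed for description with these values known, so the count is not tested against the rest.

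**Figure D2:**
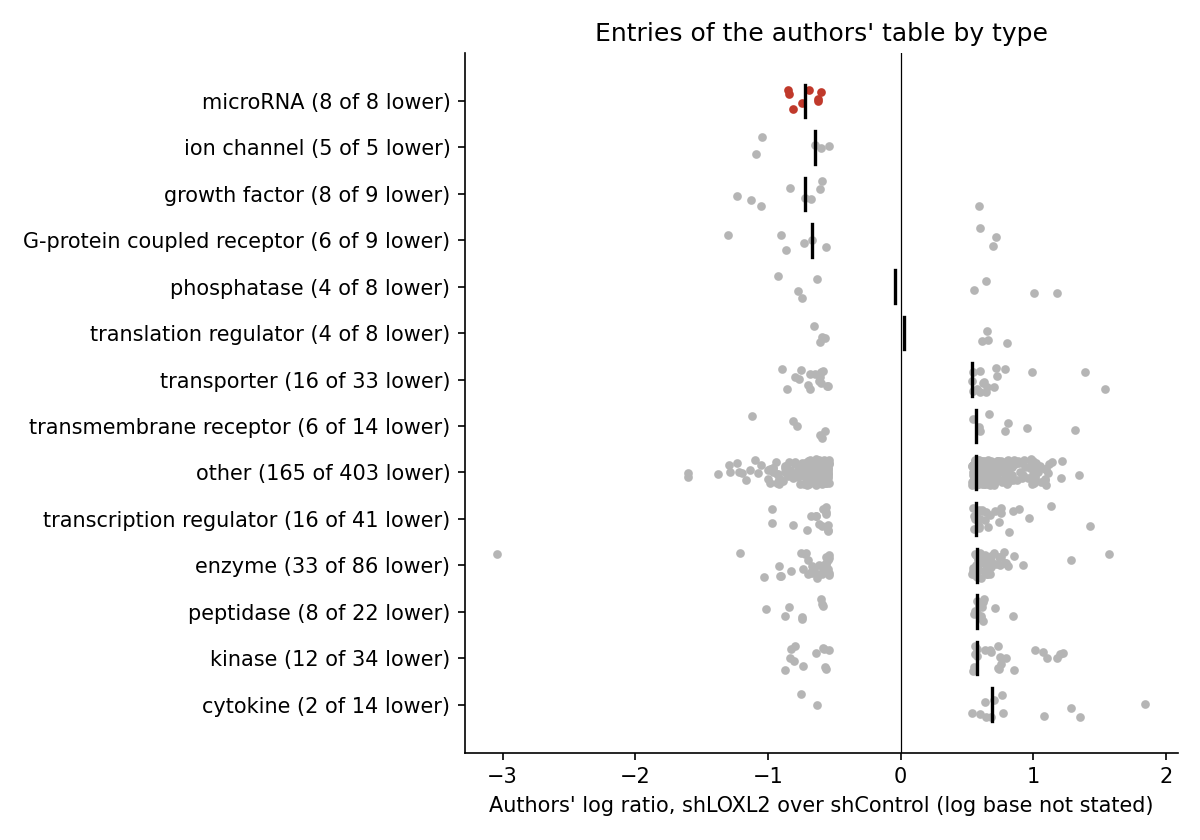
Authors' log ratio of shLOXL2 over shControl (horizontal axis, log base not stated) of each entry, by the type the authors' deposited table gives it, with a black bar at the median of the type. All 8 microRNA entries (red, top) are below 0, and most other types have entries on both sides.

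By the identifier column, the 3 microRNA genes of the MIR100HG locus include the 2 lowest of the 8. For these 2 the name column gives other genes, let-7a-1 and miR-125a, so their place in this locus rests on the identifiers. MIR100HG is a long noncoding RNA gene on chromosome 11 that hosts the cluster of miR-100, let-7a-2 and miR-125b-1, whose order is conserved in animals. MIRLET7A2 had -0.846 in the authors' deposited table. The let-7 family restrains HMGA2 and LIN28B and is a classic suppressor of self-renewal in breast cancer cells. MIR125B1 had -0.845 in the authors' deposited table, 0.001 from MIRLET7A2. MiR-125b is known for repressing apoptosis genes such as BAK1 and, in several tissues, the receptor genes ERBB2 and ERBB3. MIR100, whose microRNA represses MTOR and IGF1R, had -0.62 in the authors' deposited table, 0.22 nearer to 0 than MIRLET7A2.

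Their hairpins are printed with the mature strands of both arms in capitals, to show where these lie in each hairpin. MIR100 lies at chr11:122152229-122152308, MIRLET7A2 at chr11:122146522-122146593 and MIR125B1 at chr11:122099757-122099844, all on the minus strand (RefSeq, GRCh38.p14).
MIR100: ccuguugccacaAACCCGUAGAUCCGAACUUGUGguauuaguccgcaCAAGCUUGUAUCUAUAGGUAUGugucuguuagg
MIRLET7A2: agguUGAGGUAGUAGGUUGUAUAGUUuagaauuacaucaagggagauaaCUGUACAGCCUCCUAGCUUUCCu
MIR125B1: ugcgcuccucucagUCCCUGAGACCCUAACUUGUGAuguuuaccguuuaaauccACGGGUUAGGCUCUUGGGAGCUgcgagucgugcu

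In the direction of transcription MIR100 comes first, MIRLET7A2 follows 5.64 kb after it and MIR125B1 a further 46.7 kb on. All 3 hairpins lie inside MIR100HG, on its strand, and the gene spans 395 kb. Another entry of the authors' deposited table lies in the same gene. BLID, a small protein-coding gene whose product carries a BH3-like motif and promotes cell death, had -0.81 in the authors' deposited table and sits between MIRLET7A2 and MIR125B1, 36.1 kb downstream of MIR100. The 4 entries were thus all listed lower, as were 43.1% of all entries. MIR100HG itself had no entry under a symbol that RefSeq lists. Entries of a single transcribed region are not separate measurements of the knockdown, and whether they share a primary transcript in these cells was not tested.

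**Figure D3:**
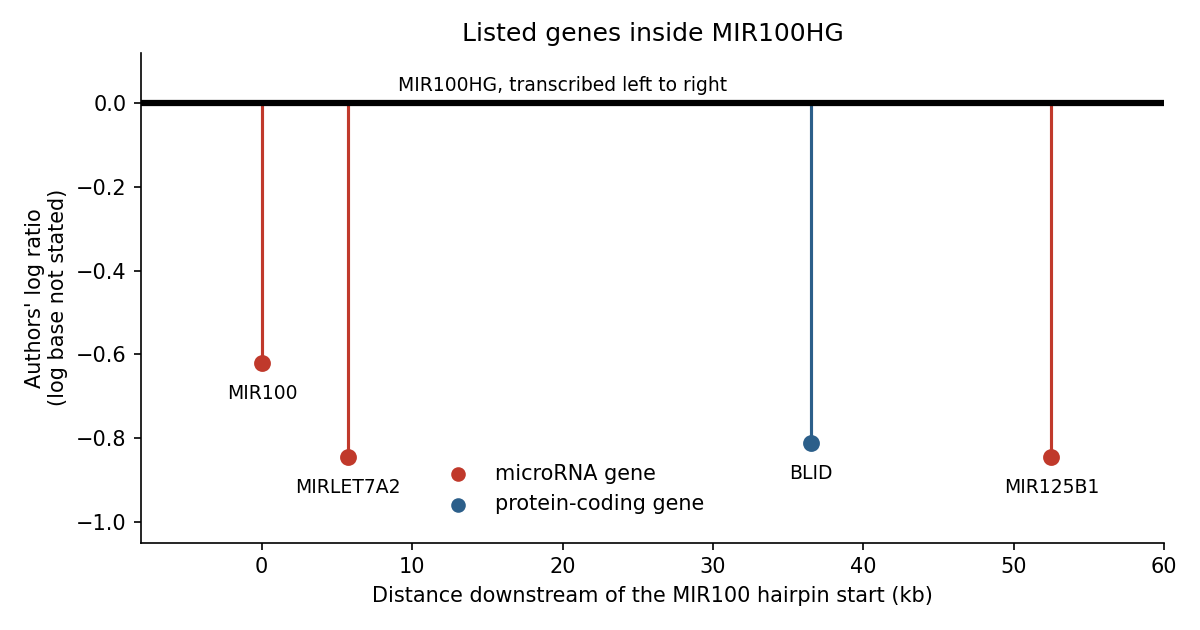
Authors' log ratio of shLOXL2 over shControl (vertical axis, log base not stated) of the 4 listed genes inside MIR100HG, by distance downstream of the MIR100 hairpin (horizontal axis, kb). MIRLET7A2, BLID and MIR125B1 lie between -0.85 and -0.81, and MIR100, the most upstream, is at -0.62. Genes are placed by their identifiers.

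MIR181A2 had -0.81 in the authors' deposited table, the lowest value outside that locus. MiR-181a is known for lowering phosphatases that limit T cell receptor signalling and for a role in TGF-beta responses of breast cancer cells. The gene lies at chr9:124692442-124692551 on the plus strand (RefSeq, GRCh38.p14), inside the host gene MIR181A2HG and opposite to NR6A1, a nuclear receptor gene on the minus strand. MIR181B2, the partner in this cluster, begins 1159 bases away and had no entry analysed here.

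MIR29A had -0.75 in the authors' deposited table. The miR-29 family represses many collagen and other matrix genes, and LOXL2 itself has been described as one of its targets in other carcinomas. MIR29A lies at chr7:130876747-130876810 on the minus strand and overlaps no other gene of the RefSeq table. Of 16 protein-coding genes within 1 Mb, 2 had entries, beside 3.06% of all protein-coding RefSeq genes. That count was not tested. CPA4, a carboxypeptidase gene, had -1.02 in the authors' deposited table and PODXL, a cell surface sialomucin gene, had -0.64. Both were listed lower, as were MIR29A and 43.1% of all entries. They lie far from MIR29A, CPA4 552567 bases and PODXL 623461 bases away.

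The other 3 genes lie on chromosome X. MIR224, at chrX:151958578-151958658 on the minus strand inside GABRE, a subunit gene of the GABA-A receptor, had -0.69 in the authors' deposited table. CETN2, a centriole protein gene and its sole listed neighbour within 1 Mb, was listed higher there, at 0.63 in the authors' deposited table. MIR221, at chrX:45746157-45746266 on the minus strand inside MIR222HG, had -0.62 in the authors' deposited table. MiR-221 and miR-222 repress the cell cycle inhibitor CDKN1B and are typically abundant in breast cancer lines of the basal, oestrogen receptor negative kind. MIR503, at chrX:134546328-134546398 on the minus strand inside MIR503HG, had -0.60 in the authors' deposited table, the value nearest to 0 of the 8. MiR-503 is related to the miR-16 group, which represses cyclin D and cyclin E genes, although its seed differs from theirs.

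Partners of these clusters were not found among the entries by a current or older symbol that RefSeq lists. Of 10 other microRNA genes within 10 kb of the 8, MIR222 (749 bases from MIR221), MIR424 (216 bases from MIR503), MIR29B1 (649 bases from MIR29A), MIR452 (970 bases from MIR224) and MIR181B2 among them, 0 had an entry. By the same match, 0 of the 6 genes that hold or overlap 7 of the hairpins had an entry. Of all protein-coding RefSeq genes 3.06% had one, so counts of 0 among so few genes say little. RefSeq lists no symbol for 19 of the 724 entries, among them MGC16121 at -0.59 in the authors' deposited table. A host or partner entered under such another name would have been missed. The sources used here do not say which of these genes have a probe set on the array, so the lack of an entry is not a lack of change. By chromosome, 3 of the 8 were on chromosome 11, 3 on X, 1 on 9 and 1 on 7, where RefSeq places 102, 118, 86 and 82 of its 1913 microRNA genes. The 3 on chromosome 11 are those of the MIR100HG locus. Of the 21 entries of the authors' deposited table on chromosome X under a current symbol, 11 were listed lower, and of the 46 on chromosome 11, 19 were. On chromosome 9 it was 17 of 28 and on chromosome 7 it was 13 of 26, beside 43.1% of all entries.

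Of 23 genes that make microRNAs or act with them, which include DROSHA, DGCR8, DICER1, XPO5 and the Argonaute genes, 1 had an entry in the authors' deposited table. This share of 4.35% is near that of all protein-coding RefSeq genes, of which 3.06% (614 of 20056) had one. TNRC6B, a scaffold that couples Argonaute to messenger RNA decay, had -0.58 in the authors' deposited table.

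Known target genes of the listed microRNAs were listed in both directions. Lists for let-7, miR-100, miR-125b, miR-221, the miR-503 and miR-16 group and miR-181 held 64 genes that are reported here, and the authors' deposited table had entries for 7 of them (10.9%, beside the 3.06% of all protein-coding genes). That share was not tested. Of these 7, 4 were listed higher and 3 lower. Their median in the authors' deposited table was 0.56, and that of all entries was also 0.56, with 56.9% listed higher. For miR-100, 1 of 8 genes had an entry, PLK1, a mitotic kinase, at 1.10 in the authors' deposited table. For miR-221, 1 of 12 had an entry, CDKN1B, the inhibitor of cyclin-dependent kinases also called p27, at 0.57 in the authors' deposited table.

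The let-7 list had an entry for 1 of 17 genes, the RNA-binding protein IGF2BP3 at -0.60 in the authors' deposited table. The miR-125b list had 2 of 11, TNFAIP3, an inhibitor of NF-kB, at 0.56 and STARD13 at -0.56 in the authors' deposited table. WEE1, the kinase that holds back CDK1, was the 1 of 11 genes listed for miR-503 and miR-16, with entries of 0.68 and 0.56 in the authors' deposited table. PTPN22, a lymphoid phosphatase, was the 1 of 13 for miR-181, at -0.75 in the authors' deposited table. HMGA2, LIN28B, CCND1, CCNE1, BCL2 and MTOR had no entry analysed here. Lists for miR-29 and miR-224 were added once their genes had been seen among the entries. Of 18 genes for miR-29, LOXL2 was the 1 with an entry. LOXL2 is the hairpin's own target, so its entry is no observation on miR-29 targets. For miR-224, 0 of 4 had an entry.

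The arrays bear on the precision of these values, though not on the microRNA genes by name. Each array gave log2 values for 32321 numbered probe sets. Nothing used here links those numbers to genes, so a microRNA gene has no value per array here and the line's own markers could not be checked. Of 5 mesenchymal markers of the line 0 had an entry in the authors' deposited table, likewise 0 of 4 fibroblast, 0 of 4 blood and 0 of 3 endothelial markers, and of 5 epithelial ones EPCAM alone had entries (mean 0.63 in the authors' deposited table). The median of an array was 5.74 to 5.82 on the log2 scale. For 2 of the 3 shControl arrays, replicates 2 and 3, the source name says shLOXL2, against the title and the knockdown field, which were followed. The labels do not say whether replicates are separate cultures, so the spread between arrays may be technical.

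A linear model across all probe sets (limma, Benjamini-Hochberg) called 1 of 32321, or 0.00309%, at an adjusted p under 0.05, and that 1 was lower in shLOXL2. It measured 8.08 ± 0.22 in shLOXL2 and 11.16 ± 0.21 in shControl (log2, SD, n = 3 each), a log2 difference of -3.08 (limma, adjusted p = 0.0126), and leaving out any 1 array ended the call. LOXL2 had a like value of -3.04 in the authors' deposited table. The probe set is not named, so the log base of that table was not settled from it. Differences as large as those of the microRNA entries, -0.85 to -0.60 on the log2 scale, were seen for 357 probe sets. Of these, 0 passed (lowest adjusted p = 0.624 by limma). An unadjusted p under 0.05 by limma was seen for 201 of the 357 (56.3%), beside 1781 of all 32321 probe sets. Choosing probe sets by their difference raises that share by construction. In this fit, which did not pair same-numbered arrays, the standard error of the 357 was 0.27 at the median. It ran from 0.11 to 0.99, beside a median of 0.16 over all probe sets. The 8 microRNA entries differed among themselves by at most 0.25 in the authors' deposited table. If the table is in log2, this is less than the median error of the 357 and more than that of all probe sets. The errors of the microRNA genes themselves are not known, so the order of their listed values is not read as an order of change.

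In 163 of the 357 probe sets, or 45.7%, every shLOXL2 array lay below every shControl array, as was the case for 6.21% of all probe sets. The 357 were chosen by their difference, which raises this share by construction. They became 543 without shLOXL2 replicate 2 and 599 without shControl replicate 3. With this number of arrays, no single probe set with a difference of the size listed for the microRNA genes passed the adjusted threshold.

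**Figure D4:**
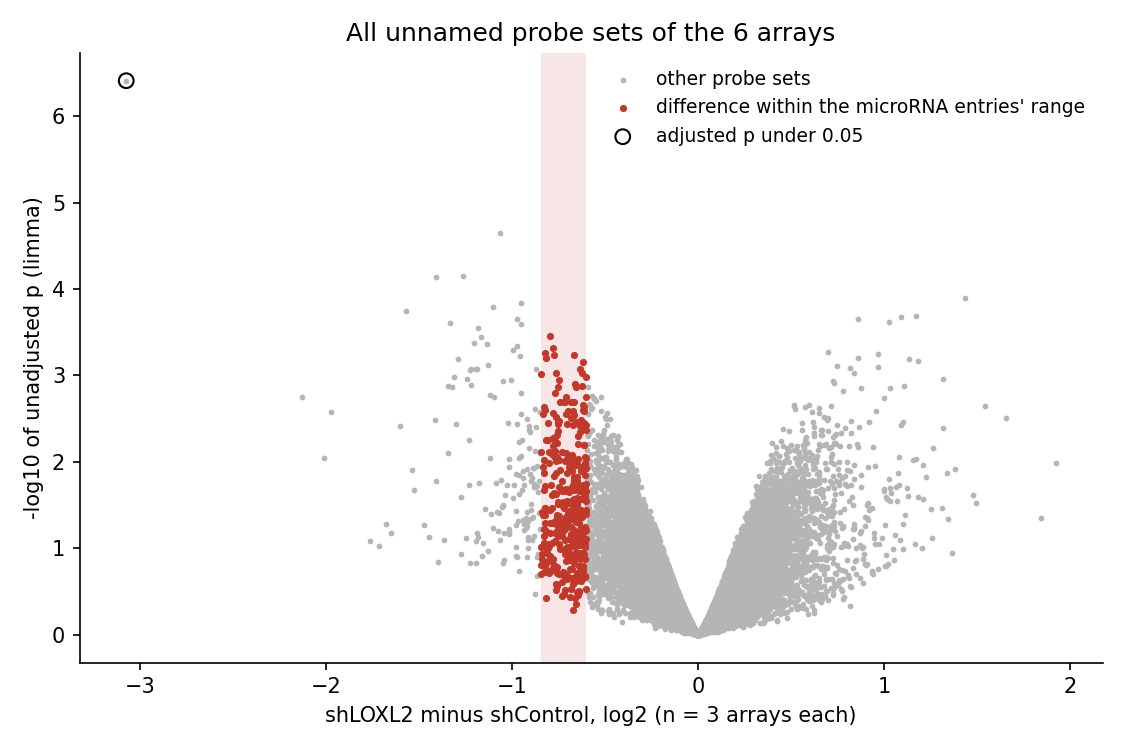
Difference of shLOXL2 minus shControl (horizontal axis, log2, 3 arrays each) and -log10 of the unadjusted limma p (vertical axis) of 32321 unnamed probe sets. The 357 with a difference between -0.85 and -0.60, the range of the microRNA entries, are red, and the circle marks the 1 probe set that passed an adjusted p of 0.05.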

How the data were processed

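The authors deposited log2 values of 6 arrays, made with RMA per the submitters' processing notes. RMA subtracts background, brings the arrays to a common scale and combines the probes of a set. No source used here gives its version, the probe annotation or the genome build. The authors' deposited table of log ratios was exported from Ingenuity Systems software, per the file headers. Decimal commas were converted and a leading question mark was read as minus, which left 0 breaks in its falling order. MicroRNA genes were the entries whose identifier or symbol starts with MIR or mir and a number, or with LET, and were named with all listed hosts, neighbours and list genes. The members and lists were chosen with earlier results of these data known. Some genes of the target lists are not reported here and were left out of the counts. Names, neighbours and sequences came from RefSeq (GRCh38.p14).

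A linear model (limma 3.58.1, R 4.3.3) of all 32321 probe sets had group as the only term, after a check on simulated data. The planned fit for microRNA genes by name could not be made, since no probe set is named. Deviations of same-numbered arrays from their group means correlated at 0.35, 0.45 and 0.16 for replicates 1, 2 and 3, so the numbers were taken as pairs, from the data and not the labels, for an alternative with a replicate block.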

Additional observations from a re-analysis of the deposited data

How the results depend on the processing

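The count of 8 microRNA entries listed lower stayed at 8 with entries averaged by gene and with members found by the identifier or the symbol column alone. These settings could not move it, since each gene has a single entry and either column finds all 8. Counting host genes by a name ending in HG could not move it either, since 0 entries have such a name. A host entered under another name would not have been counted. It was 5 among entries at or above the median size. The 1 probe set called by limma was also the count under quantile normalization, median centring, trend and robust moderation, the filter on dim probe sets, the replicate block and after dropping the 4090 probe sets at the start of the table, numbered in an almost unbroken run (a choice made after seeing the data). The replicate block changed no call, with 2964 probe sets at an unadjusted p under 0.05 in limma, against 1781 without it. Of the 357 probe sets with a difference of the microRNA size, 288 were at that level with the block and 201 without it. Leaving out 1 array gave 0 to 0 calls (1063 to 2250 at an unadjusted p under 0.05), and shControl replicate 1 alone as control gave 0 (3975, the lone array assumed to vary like the others). The 357 probe sets with a difference of the microRNA size became 192 with dim probe sets left out, 221 without the first numbered ones, 1328 with shControl replicate 1 alone and 347 to 599 with 1 array left out. The causes were not tested beyond the fewer probe sets or arrays in these settings. The microRNA genes themselves could not be recomputed on the arrays under any setting. Precision is limited by the few arrays.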
